A study of Mus musculus with 6 samples.

Results

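The genes described here are targets of the transcription factor p53 and genes that start, block or carry out apoptosis, chosen by name from a list of 36 symbols. Of these, 34 had a row in the expression table, out of 20160 rows in all, and Pmaip1 and Bik were not analysed here. The members fall into 16 p53 targets, 9 pro-apoptotic members of the BCL2 family (7 with a row), 7 anti-apoptotic genes, and 4 genes grouped as caspases and their adaptors. The samples were tumours grown from S-180 cells, a mouse sarcoma line, placed under the skin of athymic mice (BALB/c nude). In the RGLS group (n = 3) the mice had been given RGLS before the cells were injected. The labels do not spell RGLS out, and the series title names spores of the fungus Ganoderma lucidum without their sporoderm, the spore wall. The model group (n = 3) carried the same tumours and is labelled without RGLS. Dose, duration and age are not given in the sources used here, and no label states that each sample was a different animal, so p-values measure only the spread between these samples. Tumour and host are both mouse, so reads of tumour cells and host cells cannot be told apart. In such bulk tissue, fewer cells of a type and less RNA per cell cannot be told apart either.

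As background, p53 is kept low by Mdm2, a ubiquitin ligase that is itself a p53 target. When DNA is damaged p53 accumulates and raises genes that halt the cell cycle, such as Cdkn1a, or that favour death, such as Bbc3 and Bax. Death through the mitochondrion is set by the BCL2 family. BH3-only proteins (Bid, Bad, Bbc3, Bcl2l11) relieve the block by Bcl2, Bcl2l1 and Mcl1, so that Bax and Bak1 open the outer membrane. Cytochrome c then assembles Apaf1 and Casp9, while inhibitor of apoptosis proteins such as Xiap restrain caspases and Diablo relieves that restraint. Fas and Tnfrsf10b are death receptors that act through Casp8, which Cflar blocks.

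The sequence by which p53 recognises a target was present near an annotated start of 6 of the 30 members that have a promoter window in the RefSeq table (GRCm38.p6, 250 bases before to 50 after a start). The site searched was the p53 consensus of 2 half-sites of 10 bases each, with a spacer of at most 1 base and at most 3 mismatches, none of them at the fixed C or G. The consensus reads the same on both strands. Over all genes with a window, 3.27% held such a match. The matches are shown because 2 of the genes that hold them, Cdkn1a and Ccng1, had read ratios on opposite sides of 1 in these tumours. No gene with a match passed the tests described below, and Bax and Sesn1 held only 8 and 5 reads in all. Capitals mark the half-sites.
Cdkn1a (chr17:29090928-29090947, plus strand, 1 mismatch): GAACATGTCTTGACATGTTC
Ccng1 (chr11:40755462-40755481, minus strand, 1 mismatch): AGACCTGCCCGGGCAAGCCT
Bax (chr7:45467079-45467099, minus strand, 2 mismatches): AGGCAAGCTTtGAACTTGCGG
Bbc3 (chr7:16309486-16309505, plus strand, 3 mismatches): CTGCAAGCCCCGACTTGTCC
Aen (chr7:78895937-78895956, plus strand, 3 mismatches): GGGCTTGTCCGGGCAAGGAG
Sesn1 (chr10:41887266-41887285, plus strand, 3 mismatches): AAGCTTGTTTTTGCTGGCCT

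The whole windows of Cdkn1a and Ccng1 are given because these rows held the most reads among the p53 targets with a match. The window of Cdkn1a is that of the upstream one of its RefSeq starts (chr17:29090729-29091028, plus strand), and its match begins at base -51 from that start. In the window of Ccng1 (chr11:40755237-40755536, minus strand) the match begins at base -195 from the start.
Cdkn1a: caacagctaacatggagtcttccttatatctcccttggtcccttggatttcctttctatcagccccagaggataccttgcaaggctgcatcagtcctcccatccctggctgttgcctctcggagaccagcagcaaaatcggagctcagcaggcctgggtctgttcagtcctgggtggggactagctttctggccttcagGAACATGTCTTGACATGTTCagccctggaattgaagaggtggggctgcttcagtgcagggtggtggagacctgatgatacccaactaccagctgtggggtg
Ccng1: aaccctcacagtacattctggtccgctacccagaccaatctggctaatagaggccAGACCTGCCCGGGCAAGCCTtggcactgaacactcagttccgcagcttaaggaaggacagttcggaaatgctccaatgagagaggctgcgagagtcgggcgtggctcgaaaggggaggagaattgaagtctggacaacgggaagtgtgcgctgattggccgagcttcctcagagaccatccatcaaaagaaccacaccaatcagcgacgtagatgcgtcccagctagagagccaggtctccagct

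No match was found in the windows of the 7 anti-apoptotic genes or of the 4 caspases and adaptors. A match in letters is a description and does not show binding, and a window without one says only that these letters are not in it.

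Values are in CPM, reads scaled to the authors' effective library size. They were whole multiples of what 1 read was worth, so reads were recovered. A library held 418102 to 458641 reads in these rows in RGLS and 369453 to 387933 in model, about 2% of the authors' library size. One read equalled 0.0390 to 0.0467 CPM in RGLS and 0.0566 to 0.0575 CPM in model. The members together held 1927 reads over the 6 libraries, of which Bid and Bad held 921. Of the 34 rows, 22 had at least 10 reads in all and 12 had fewer. For 10 of the 34 rows, at least 50 exonic bases are shared with a gene on the other strand, and such rows are called overlapped here. Whether counting used strand is not stated in the labels, so the reads of these rows may belong to either gene. Over the whole table the 13450 rows with no gene opposite summed to 3431 ± 381 CPM in RGLS and 2856 ± 137 in model (SD, n = 3 each), a ratio of 1.20. The 6282 overlapped rows summed to 15096 ± 1208 CPM in RGLS and 18303 ± 750 in model, a ratio of 0.825. For both, the 2-sided exact permutation p was 0.1, the smallest that 3 against 3 libraries allow. The 10 overlapped members therefore are named with the gene opposite, and every other member with a row has no gene opposite.

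No member passed the test of RGLS against model. Of the 34 rows, 4 reached the tested level of at least 1 CPM in at least 3 libraries (Bid, Bad, Bak1 and Mcl1), and limma on log2(CPM + 1) called 0 of them, against 1.47% of all 2319 rows tested. At an unadjusted p under 0.05 there was 1 of the 4 (Bid), against 23.3% of all rows tested. With edgeR on the recovered reads, 22 members could be tested and 0 were called, against 1.50% of 10637 rows. At an unadjusted p under 0.05 edgeR had 4 members higher and 3 lower in RGLS, against 9.16% and 4.96% of its rows. DESeq2 called 0 of the 22, against 0.573% of the same 10637 rows, and 12 of the 22 received no adjusted p.

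**Figure D1:**
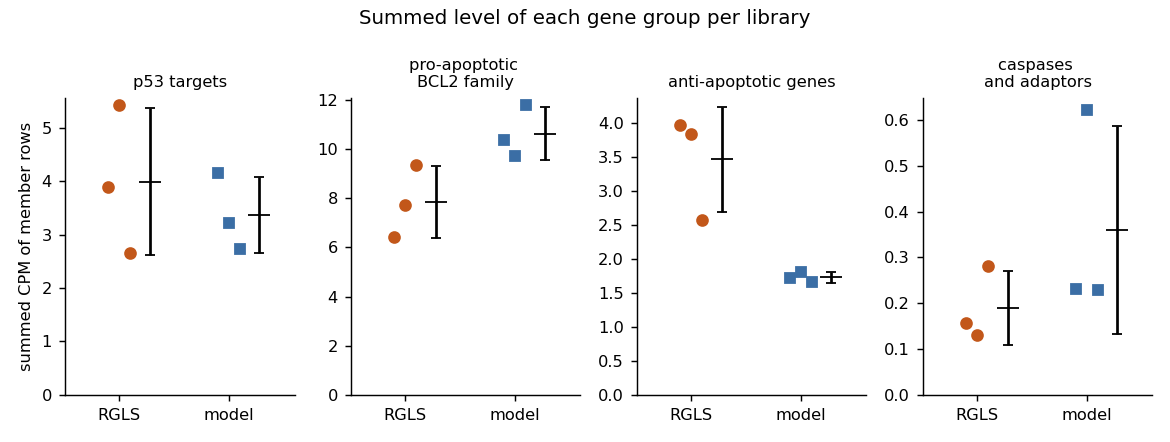
Summed CPM of the member rows of each gene group in every library (points), with the mean and SD of the 3 libraries beside them, RGLS left and model right. The anti-apoptotic sums of the RGLS libraries lie above all model libraries, the pro-apoptotic sums below them, and the sums of the p53 targets and of the caspases with their adaptors overlap.

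The 7 anti-apoptotic genes had a higher sum in RGLS. Their sum was 3.97, 3.84 and 2.57 CPM in RGLS 1, 2 and 3, against 1.73, 1.81 and 1.65 CPM in model 1, 2 and 3. The mean was 3.46 ± 0.775 CPM in RGLS and 1.73 ± 0.0775 in model (SD, n = 3 each), a ratio of 2.0, with an exact permutation p of 0.1, the smallest possible. All 3 RGLS libraries lay above all 3 model libraries, and RGLS 3 was the lowest of them. Of the 7 rows, 6 have no gene opposite, and their sum was 3.42 ± 0.741 CPM in RGLS and 1.73 ± 0.0775 in model, a ratio of 1.98, against 1.20 for all such rows of the table. All 7 members had a higher mean CPM in RGLS, and in 3 of them (Bcl2l1, Cflar and Xiap) the groups did not overlap. Higher values were common in that class: edgeR's log2 fold change was above 0 in 66.7% of all rows with no gene opposite and at least 10 reads, with a median of 0.47, and in all 6 anti-apoptotic members tested, with a median of 1.02. Among all rows with no gene opposite and at least 10 reads, every RGLS value exceeded every model value in 14.0%.

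Of the BCL2 proteins that block Bax and Bak1, Mcl1, a short-lived one, held the most reads. Mcl1 (chromosome 3, 95658788 to 95663176, no gene opposite) had 1.36, 2.05 and 0.935 CPM in RGLS 1, 2 and 3, against 0.921, 1.02 and 0.457 CPM in model 1, 2 and 3. RGLS 3 lay within the model range, so the groups overlapped. The log2 fold change of Mcl1 was 0.44 on the log2(CPM + 1) scale (SE 0.22, limma adjusted p = 0.243), and its reads numbered 102 in RGLS and 42 in model. It was 0.26 without RGLS 2 and 0.29 without model 3 (limma adjusted p = 0.609 and 0.560). Bcl2l1, which encodes Bcl-xL, had 0.935, 0.612 and 0.654 CPM in the RGLS libraries and 0.518, 0.452 and 0.457 CPM in the model libraries. These groups did not overlap, yet the ratio of its 52 reads in RGLS to 25 in model after scaling to library size was 1.56 with a 95% counting interval of 0.953 to 2.63. Bcl2 itself held 3 reads in RGLS and 0 in model, at or under the floor of 3 reads over a group at which no fold is given. Its row lies opposite D630008O14Rik over 558 bases, which had 0.876 ± 0.464 CPM in RGLS and 0.438 ± 0.351 in model.

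Of the genes that restrain caspases, Cflar (chromosome 1, 58711508 to 58758884, no gene opposite) encodes c-FLIP, the inhibitor of Casp8 activation. It had 0.584, 0.699 and 0.654 CPM in RGLS 1, 2 and 3, against 0.230, 0.226 and 0.399 CPM in model 1, 2 and 3. All RGLS values were above all model values, with a read ratio of 2.26 (95% counting interval 1.23 to 4.36) and an edgeR adjusted p of 0.413. Xiap, an inhibitor of caspases encoded on chromosome X, had 0.351, 0.349 and 0.280 CPM in the RGLS libraries. In the model libraries it had 0.0575, 0 and 0.171 CPM, from 4 reads in all. Its read ratio was 4.32 (95% counting interval 1.48 to 17.2), and its edgeR adjusted p was 0.354. Xiap was picked out with its values in view. Birc2 and Birc3, neighbouring genes on chromosome 9 that encode ubiquitin ligases of tumour necrosis factor signalling, held 8 and 12 reads in RGLS, against 3 and 2 in model. Of the 12 reads of Birc3 in RGLS, 11 came from RGLS 1, so that library decides its mean.

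**Figure D2:**
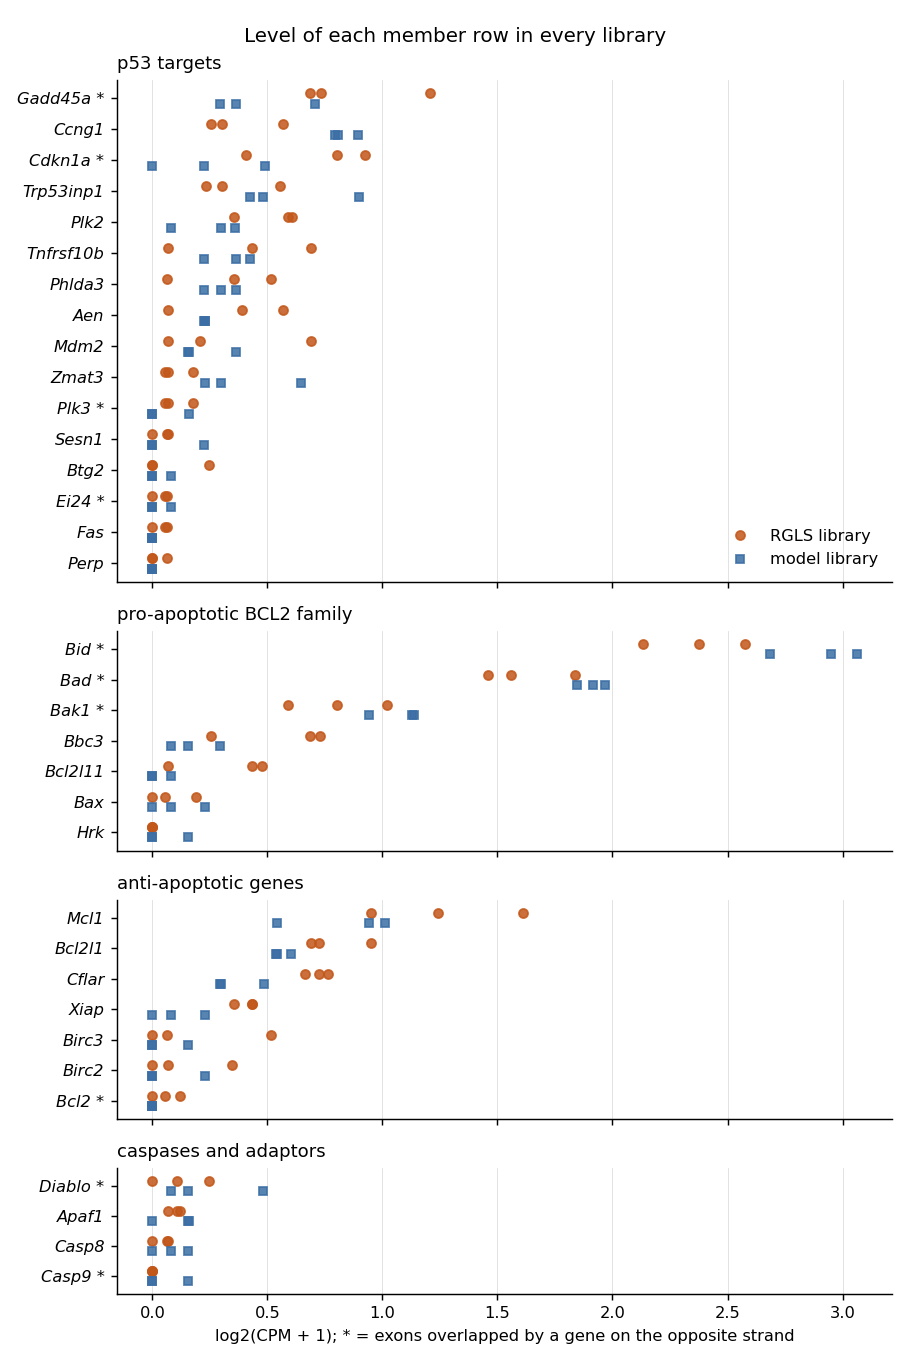
Level of each of the 34 member rows in every library, as log2(CPM + 1), by gene group and ordered by mean level, with circles for RGLS and squares for model libraries and a star on overlapped rows. Every library of Bid lies above every library of the other members, Bad and Mcl1 overlap in RGLS, and no library of a caspase or adaptor gene exceeds 0.396 CPM.

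The pro-apoptotic BCL2 family had a lower sum in RGLS, and it rested on 3 overlapped rows. The sum over 7 rows was 6.43, 7.73 and 9.35 CPM in RGLS 1, 2 and 3, against 10.4, 9.73 and 11.8 CPM in model 1, 2 and 3. The mean was 7.84 ± 1.46 CPM in RGLS and 10.6 ± 1.07 in model (SD, n = 3 each), a ratio of 0.737, with an exact permutation p of 0.1, the smallest possible. The libraries of the groups did not overlap. Split by class, the overlapped rows Bid, Bad and Bak1 had 7.03 ± 1.39 CPM in RGLS and 10.4 ± 1.05 in model, a ratio of 0.678, against 0.825 for all overlapped rows of the table. The 4 rows with no gene opposite went the other way, with 0.809 ± 0.232 CPM in RGLS and 0.266 ± 0.130 in model. Their ratio was 3.05, against 1.20 for their class, and their sums did not overlap between the groups either (exact permutation p = 0.1). Without Bid alone, the sum of the family was 3.66 ± 0.685 CPM in RGLS and 4.12 ± 0.439 in model, a log2 ratio of -0.17 against -0.44 with it (exact permutation p = 0.4).

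Bid, a BH3-only protein that Casp8 cleaves to link death receptors to the mitochondrion, had the largest count of all members. Its row (chromosome 6, 120891930 to 120916853) had 3.39, 4.19 and 4.95 CPM in RGLS 1, 2 and 3, against 6.73, 5.43 and 7.36 CPM in model 1, 2 and 3. All RGLS values were below all model values, which held for 13.4% of overlapped rows with at least 10 reads. Its log2 fold change came to -0.54 (SE 0.18, limma adjusted p = 0.103), against a median of -0.19 over the 1799 overlapped rows tested. It was called lower without RGLS 3 (log2 fold change -0.64, limma adjusted p = 0.0439). That fit called 209 of all 2319 rows tested, against 34 with all libraries. Over all 19 settings its limma, edgeR or DESeq2 adjusted p lay between 0.0439 and 0.398. Bcl2l13, another gene of the BCL2 family, lies opposite Bid over 628 bases. The row of Bcl2l13 had 0.790 ± 0.241 CPM in RGLS and 0.780 ± 0.280 in model (SD, n = 3 each), while that of Bid had 4.18 ± 0.783 CPM in RGLS and 6.51 ± 0.986 in model.

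Bad, a BH3-only protein held in check by growth factor signalling (chromosome 19, 6941861 to 6951899), lies opposite Gpr137 over 524 bases. It had 1.95, 1.75 and 2.57 CPM in RGLS 1, 2 and 3, against 2.59, 2.77 and 2.91 CPM in model 1, 2 and 3. The groups did not overlap, though RGLS 3 and model 1 were nearly level, and limma gave -0.29 on the log2 scale (SE 0.19, adjusted p = 0.381). Bak1, a pore-forming protein (chromosome 17, 27019810 to 27029009), has 614 bases overlapped by 2 annotated genes that are both named Ggnbp1 (437 and 177 bases). It had 0.506, 0.743 and 1.03 CPM in the RGLS libraries and 0.921, 1.19 and 1.20 CPM in the model libraries. These overlapped, and limma gave -0.26 on the log2 scale (SE 0.20, adjusted p = 0.432), or -0.16 without RGLS 1 (adjusted p = 0.801). The row of Gpr137 was at 0.573 ± 0.0875 CPM in RGLS and 0.779 ± 0.140 in model. The row of Ggnbp1 was at 1.09 ± 0.179 CPM in RGLS and 1.58 ± 0.749 in model.

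The BH3-only genes Bbc3 and Bcl2l11 account for most of the summed CPM of the family's rows with no gene opposite. Both were picked with their values in view. Bbc3, which encodes PUMA, had 0.195, 0.655 and 0.608 CPM in RGLS 1, 2 and 3, against 0.0575, 0.226 and 0.114 CPM in model 1, 2 and 3. RGLS 1 lay below model 2, so the groups overlapped, and the read ratio was 3.54 (95% counting interval 1.54 to 9.49, edgeR adjusted p = 0.283). Bcl2l11, which encodes BIM, had 19 reads in RGLS and 1 in model, a read ratio of 14.3 (95% counting interval 2.27 to 593). Of those 19 reads, RGLS 1 and RGLS 2 held 9 each and RGLS 3 held 1, and the edgeR adjusted p was 0.211. Bax, the other pore-forming protein, had 4 reads in each group, and Hrk had 0 in RGLS and 2 in model.

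**Figure D3:**
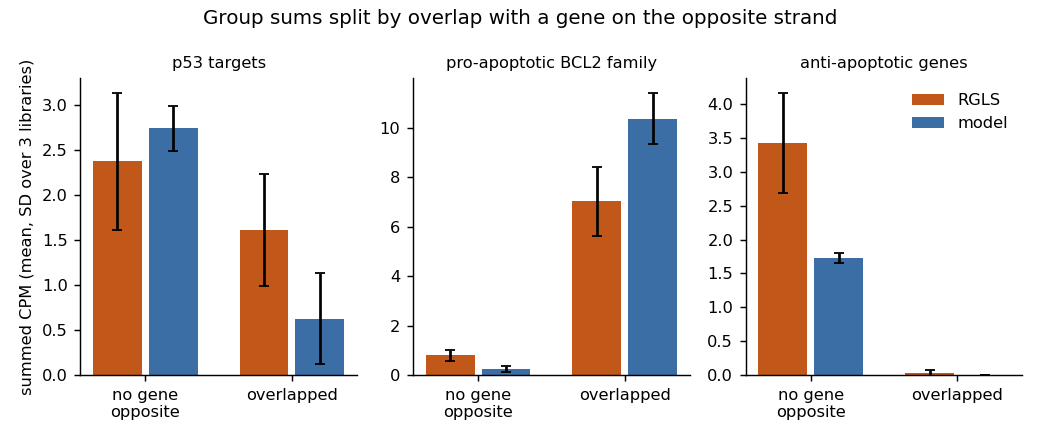
Summed CPM of 3 gene groups, split into rows with no gene on the opposite strand and overlapped rows (bars, mean; error bars, SD over 3 libraries), RGLS left of model. The split turns the direction in the pro-apoptotic family and in the p53 targets, while nearly all of the anti-apoptotic sum lies in rows with no gene opposite.

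The p53 targets did not move together. Their sum was 3.90, 5.42 and 2.66 CPM in RGLS 1, 2 and 3, against 4.14, 3.22 and 2.74 CPM in model 1, 2 and 3. The means of 3.99 ± 1.38 CPM in RGLS and 3.37 ± 0.713 in model (SD, n = 3 each) gave an exact permutation p of 0.7, and the direction turned without RGLS 2 (log2 ratio -0.04, against 0.25). Of the 10 targets with at least 10 reads, 7 had a higher and 3 a lower mean in RGLS. Over all 10637 rows with at least 10 reads, edgeR's log2 fold change was above 0 in 55.5%. In rows with no gene opposite the sum was 2.38 ± 0.760 CPM in RGLS and 2.74 ± 0.253 in model, a ratio of 0.868 against 1.20 for their class. In the 4 overlapped rows it was 1.62 ± 0.623 CPM in RGLS and 0.630 ± 0.504 in model, a ratio of 2.56 against 0.825. That overlapped sum rested on Gadd45a and Cdkn1a, with 60 and 47 reads in RGLS, while Ei24 and Plk3 held 2 and 5.

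Among the targets that arrest growth or answer DNA damage, Gadd45a and Cdkn1a held many of the reads. Gadd45a (chromosome 6, 67035096 to 67037457), a damage-response gene opposite E230016M11Rik over 337 bases, had 0.662, 1.31 and 0.608 CPM in RGLS 1, 2 and 3. In model 1, 2 and 3 it had 0.633, 0.226 and 0.285 CPM, so model 1 lay within the RGLS range. Its read ratio was 2.26 (95% counting interval 1.34 to 3.95, edgeR adjusted p = 0.347), while the opposite row had 3.69 ± 0.973 CPM in RGLS and 4.07 ± 0.543 in model. Cdkn1a (chromosome 17, 29090976 to 29100727), which encodes the cyclin-dependent kinase inhibitor p21 and is overlapped over 273 bases by AC167363.2, had 0.896, 0.743 and 0.327 CPM in RGLS 1, 2 and 3. In the model libraries it had 0.403, 0.170 and 0 CPM, and RGLS 3 lay below model 1. The read ratio of Cdkn1a was 3.53 (95% counting interval 1.76 to 7.84), with an edgeR adjusted p of 0.238. Plk2, a kinase of the same damage response picked with its values in view, had 31 reads in RGLS and 10 in model, a ratio of 2.33 (95% counting interval 1.11 to 5.33, edgeR adjusted p = 0.527).

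Ccng1, Zmat3 and Trp53inp1 lay on the other side. Ccng1 (chromosome 11, 40748552 to 40755311, no gene opposite) encodes cyclin G1, a p53 target that acts back on the Mdm2 loop. It had 0.195, 0.481 and 0.234 CPM in RGLS 1, 2 and 3, against 0.748, 0.735 and 0.856 CPM in model 1, 2 and 3. All RGLS values were below all model values, which held for 4.21% of rows with no gene opposite and at least 10 reads. The read ratio of Ccng1 was 0.385 (95% counting interval 0.216 to 0.667, edgeR adjusted p = 0.276). Zmat3, an RNA-binding protein also picked with its values in view, had 5 reads in RGLS and 17 in model, again with no overlap (read ratio 0.221, 95% counting interval 0.0638 to 0.624). Trp53inp1, which promotes autophagy and cell death, had 20 reads in RGLS and 28 in model, with overlapping groups. Ccng1 and Cdkn1a, whose windows both hold a p53 site with 1 mismatch (above), thus had read ratios on opposite sides of 1, and no test of the difference between them was run.

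Of the remaining p53 targets, Mdm2 had 0.156, 0.612 and 0.0467 CPM in the RGLS libraries and 0.115, 0.113 and 0.285 CPM in the model libraries, and thus overlapped widely. Tnfrsf10b, Aen (a p53-induced nuclease) and Phlda3 (a p53-induced inhibitor of Akt) had read ratios of 1.29, 1.67 and 1.13, each with a counting interval that included 1. In these 3 rows and in Mdm2 at least 1 RGLS library lay below all model libraries. Fas, Sesn1, Ei24, Perp, Btg2 and Plk3 had between 1 and 7 reads over all 6 libraries, and differences in them were not detectable at this depth. Ei24 and Plk3 are overlapped, over 324 bases by Gm26787 (0.226 ± 0.211 CPM in RGLS, 0.210 ± 0.133 in model) and over 84 bases by Tctex1d4, not analysed here.

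**Figure D4:**
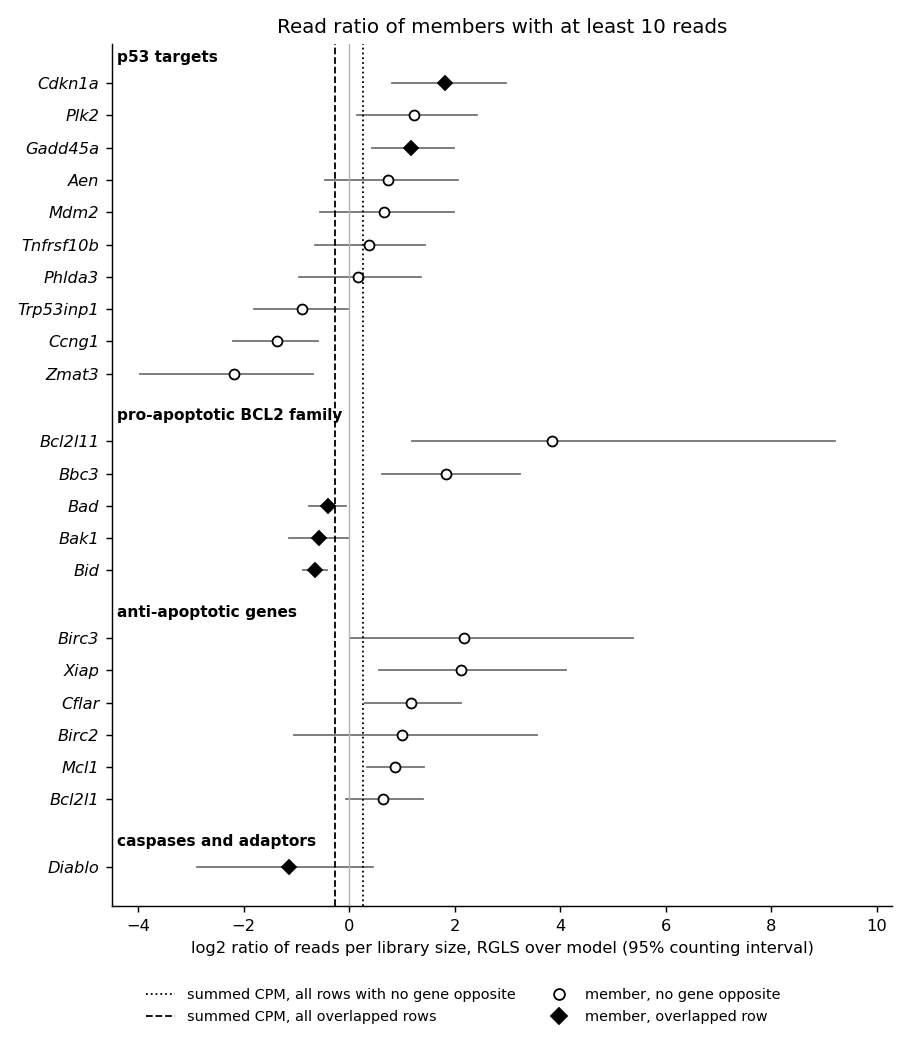
Ratio of reads per library size, RGLS over model, on a log2 axis, for the 22 members with at least 10 reads, with exact 95% intervals for counting error only. Filled diamonds are overlapped rows and open circles rows with no gene opposite. The vertical lines mark no difference and the ratios of summed CPM of the 2 classes (1.20 and 0.825), and all 6 anti-apoptotic members lie to the right of the line at no difference.

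The caspases and their adaptors were nearly without reads. The 4 rows held 13 reads in RGLS and 19 in model. Their sum was 0.156, 0.131 and 0.280 CPM in RGLS 1, 2 and 3, against 0.230, 0.622 and 0.228 CPM in model 1, 2 and 3, with an exact permutation p of 0.3. Model 2 stood above the others, and without it the log2 ratio of the sums was -0.28 against -0.93. Diablo, an antagonist of the inhibitor of apoptosis proteins (opposite B3gnt4 and AC157931.1), had 0.0779, 0 and 0.187 CPM in the RGLS libraries and 0.0575, 0.396 and 0.114 CPM in the model libraries. The row of B3gnt4 had 2.81 ± 0.424 CPM in RGLS and 2.42 ± 0.281 in model. Apaf1, the scaffold of the apoptosome, had 0.0779, 0.0874 and 0.0467 CPM in the RGLS libraries and 0.115, 0 and 0.114 CPM in the model libraries. Casp8, the initiator caspase of death receptors, had 0, 0.0437 and 0.0467 CPM in the RGLS libraries and 0.0575, 0.113 and 0 CPM in the model libraries. Casp9, the initiator caspase of the apoptosome, overlapped over 94 bases by Cela2a and Ctrc, had 0 reads in RGLS and 2 in model. Differences in these rows were not detectable at this depth.

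Per kilobase of exon, the order of members was led by the overlapped rows. Bid had 1.18 CPM per kilobase in RGLS and 1.83 in model, and Bad had 0.817 in RGLS and 1.08 in model. Gadd45a (0.488 in RGLS, 0.216 in model) and Mcl1 (0.424 in RGLS, 0.234 in model) followed in RGLS, while Bak1 (0.315 in RGLS, 0.458 in model) came after Bid and Bad in model. In model the values per kilobase of Mcl1, Ccng1 (0.222) and Gadd45a were close together. In RGLS that of Ccng1 was 0.0863. Bbc3 had 0.229 CPM per kilobase in RGLS and 0.0624 in model.

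No other listed gene of the pathway passed either test. Of 84 further genes in 5 lists (p53 regulators, other p53 targets, other death receptor genes, other caspases and effectors, other BCL2 family and inhibitor of apoptosis genes), 69 had a row. limma tested 5 of them and called 0, against 1.47% of all rows, and edgeR tested 39 and called 0, against 1.50%. At an unadjusted p under 0.05 edgeR had 1 of the 39 higher (Casp6) and 1 lower (Trp53bp1), against 9.16% and 4.96% of its rows. Trp53bp1, a DNA damage protein that binds p53 (opposite Tubgcp4), had 24.2 ± 1.46 CPM in RGLS and 31.7 ± 2.13 in model (SD, n = 3 each, limma adjusted p = 0.104). Ddb2, a DNA repair gene induced by p53 (opposite Acp2), had 5.51 ± 0.686 CPM in RGLS and 7.01 ± 1.35 in model. Plcd4, a phospholipase opposite Zfp142, had 7.06 ± 0.878 CPM in RGLS and 7.99 ± 0.702 in model. Endog, a mitochondrial nuclease opposite Spout1, had 10.1 ± 1.24 CPM in RGLS and 12.9 ± 1.27 in model. Htra2, a mitochondrial protease opposite Loxl3 and Aup1, had 9.22 ± 1.98 CPM in RGLS and 11.6 ± 2.49 in model. All 5 are overlapped rows, the class whose sum was lower in RGLS. Casp6, an executioner caspase with no gene opposite chosen with its values in view, had 0.842 ± 0.0864 CPM in RGLS and 0.324 ± 0.121 in model (edgeR adjusted p = 0.257). Trp53 itself held 6 reads in RGLS and 5 in model. The other death receptor genes summed to between 1.31 and 1.56 CPM in RGLS and between 0.396 and 0.921 in model (exact permutation p = 0.1). A higher sum without overlap was thus not particular to the anti-apoptotic genes. The p53 regulators summed to between 24.1 and 26.9 CPM in RGLS and between 30.2 and 35.6 in model (exact permutation p = 0.1). Sums of the remaining lists overlapped (exact permutation p of 0.2, 0.2 and 0.4).

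Of 13 marker lists, 4 had sums that did not overlap between the groups (skeletal muscle, sarcoma and mesenchymal, nerve, macrophage). The sums of the other 9, housekeeping genes among them, overlapped, with exact permutation p between 0.2 and 1. The 10 skeletal muscle markers summed to between 9.86 and 11.5 CPM in RGLS and between 4.60 and 5.59 CPM in model. edgeR tested 8 of them and called 3 higher in RGLS (Acta1, Des and Myh4), against 1.50% of all its rows. Acta1 had 164 reads in RGLS and 2 in model (edgeR adjusted p = 6.4e-09). Des had 118 reads in RGLS and 3 in model (edgeR adjusted p = 3.3e-06). Myh4, Myh1 and Tnnt3 were without reads in model, but in RGLS they held 33, 2 and 4 reads. Thus the absence of Myh1 and Tnnt3 in model cannot be read as a difference. Only Tnnc2 and Ttn had a lower mean in RGLS. Tnnc2 had 0.475 ± 0.196 CPM in RGLS and 0.932 ± 0.0260 in model, and Ttn 1.47 ± 0.472 in RGLS and 1.63 ± 0.341 in model. The 8 markers of sarcoma and mesenchymal cells with a row summed to between 2.80 and 5.61 CPM in RGLS and between 1.48 and 2.24 CPM in model, led by Vim at 1.61 ± 0.431 CPM in RGLS and 0.818 ± 0.177 in model. The 15 housekeeping genes summed to between 28 and 37.8 CPM in RGLS and between 24.1 and 30.9 CPM in model. Of these, edgeR tested 13 and called 2 higher in RGLS (Actb and Eef2, no gene opposite), against 1.50% of all its rows. Actb had 7.21 ± 2.16 CPM in RGLS and 3.44 ± 2.11 in model (edgeR adjusted p = 0.0325). Eef2 had 5.69 ± 2.05 CPM in RGLS and 2.47 ± 1.40 in model (edgeR adjusted p = 0.0175). Tbp, the largest row and overlapped, had 13.9 ± 3.35 CPM in RGLS and 16.7 ± 1.20 in model. Gusb, Hprt and Pgk1 also had lower means in RGLS. The part of these differences in the anti-apoptotic sum was not tested. Scaling each row to the summed CPM of its class in each library left the log2 ratio of the anti-apoptotic sum at 0.76 (exact permutation p = 0.1), against 1.0. The same scaling, chosen after seeing the data, left the pro-apoptotic sum at -0.20 (exact permutation p = 0.3), against -0.44. The 6 nerve markers summed to between 2.88 and 3.58 CPM in RGLS and between 0.0571 and 0.345 CPM in model. The 8 macrophage markers with a row summed to between 11.8 and 13.4 CPM in RGLS and between 14.4 and 16.3 CPM in model. That lower sum lay in 1 overlapped row, Csf1r (opposite Hmgxb3), with 8.80 to 11.97 CPM in RGLS and 13.57 to 15.36 CPM in model. Of the other 7 macrophage markers, 6 had a higher mean in RGLS, Lyz2 with 1.02 ± 0.705 CPM in RGLS and 0.361 ± 0.285 in model among them. The 5 T and NK cell markers with a row summed to at most 0.218 CPM in any library.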

How the data were processed

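RNA-seq of 3 RGLS and 3 model tumours was analysed, with total RNA and a SMARTER library kit, per the labels' protocols. The authors deposited 1 table that they named TMM, and its values were read as CPM of a TMM-scaled library size from the values themselves, as no header states the unit. Bowtie2, HTSeq and mm10 are named in the submitters' processing notes, and strand handling is not stated there. All 120960 values were whole multiples of 1 read within 0.001, so reads were recovered for count tests. The rows hold 1.79% to 2.21% of the authors' library sizes.

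The main test was limma 3.58.1 in R 4.3.3 on log2(CPM + 1), its variance prior following mean level, for rows reaching 1 CPM in 3 libraries or more, with Benjamini-Hochberg adjustment and a threshold of 0.05. edgeR 4.0.16 (quasi-likelihood) and DESeq2 1.42.0 were run on rows with at least 10 recovered reads. The limma, edgeR and DESeq2 fits were tested on simulated data. Changes were simulated only in rows above the level of most members, so detection at the depth of most members was not tested. Sums per group were compared by 2-sided exact permutation. Read ratios carry exact 95% intervals, which cover counting error only. Of the rows, 19732 matched GENCODE vM21, from which overlaps were taken (at least 50 exonic bases). The members and the other lists were chosen with earlier results of these data known. Values per library are given for members that passed the filter and the 3 with most reads in each group. For the other pathway lists, up to 2 rows with the smallest p among those limma tested are named, and 2 of the lists had none tested. No 2 libraries agreed within sampling noise.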

Additional observations from a re-analysis of the deposited data

How the results depend on the processing

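Log2 ratios of summed CPM are RGLS over model. The anti-apoptotic and caspase sums kept their direction in all 12 alternatives each, and Bak1, Bad and Mcl1 kept direction and side of the threshold in all 18. Bid kept its direction in all 18 and passed in 2, without RGLS 3 and with the replicate block (limma adjusted p = 0.0444). The p53 target sum (0.25) turned to -0.20 over rows with no gene opposite and lay between -0.038 and 0.467 with 1 library left out. The pro-apoptotic sum (-0.44) turned to 1.61 over rows with no gene opposite. The sum of all members (-0.06) turned to 0.13 as a share of reads, 0.46 over rows with no gene opposite, 0.24 without Bid, 0.044 as a mean of log2 values and 0.031 with rows scaled to their class, a setting chosen after seeing the data. The cause of these turns was not tested. Rows called numbered 34, against 13 with a pseudocount of 0.1, 275 with no filter, 125 at 0.25 CPM, 14 without the trend, 75 with a robust prior, 14 at the same median, 160 with edgeR, 61 with DESeq2 and 155 with edgeR and TMM from these rows, and between 10 and 209 with 1 library left out. Of all calls, 64.7% were higher in RGLS, against 78.8% with edgeR, 80.6% with its TMM, 75.6% with no filter, 78.6% without the trend, 45.3% with a robust prior, 48.1% with the replicate block and 49.3% without RGLS 3. Member rows called lay between 0 and 1 with 1 library left out. With the replicate number as a block, 231 rows and 1 member (Bid) were called, and the sums were 0.21 (p53 targets), -0.45 (pro-apoptotic), 0.98 (anti-apoptotic), -0.84 (caspases) and -0.06 (all members). Same-numbered libraries correlated at 0.00441, -0.00556 and 0.378 in their deviations from the group means, so the numbers were not taken to pair samples. Depth limits single members, as 12 of the 34 rows held under 10 reads.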
